A study of Rattus norvegicus with 12 samples.

Results

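Translation initiation factor genes were followed in rat lenses with and without hereditary cataract. They were taken as all genes whose single symbol starts with Eif and a digit, and each gene was represented by the probe set with the highest mean over the ICR arrays. This gave 44 genes of the 18166 that could be named. ICR/Ihr rats are a strain with recessive hereditary cataract, and 3 arrays each were made from lenses of male ICR rats at 4 weeks of age, without cataract, and at 8 and 10 weeks of age, with cortical opacity. Male Sprague Dawley (SD) rats, whose lenses carry no cataract, gave 1 array each at 4, 8 and 10 weeks. Whole lenses, which the extraction protocol describes as taken out of culture medium, were ground. In such bulk RNA, fewer cells of a type and less RNA per cell cannot be told apart. Neither labels nor methods state that an age's 3 samples are different animals, so the p-values rest on a spread between samples that could be technical. Values are log2 signals as the authors normalized them with Robust Multi-array Average (RMA), and differences are on that log2 scale.

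Initiation is the step at which a ribosome is placed on the start codon of an mRNA. eIF2 brings the initiator methionyl-tRNA to the small ribosomal subunit, and kinases that phosphorylate its alpha subunit slow initiation under stress. eIF4F, made of the cap-binding protein eIF4E, the scaffold eIF4G and the helicase eIF4A, recruits capped mRNA, while 4E-binding proteins hold eIF4E back until mTOR phosphorylates them. eIF3 is a large scaffold on the small subunit, eIF1 and eIF1A take part in start codon selection, and eIF5B joins the large subunit. The symbols also take in regulators that are no initiation factors in the strict sense, namely the eIF2 kinases, the 4E-binding proteins and eIF5A, which mainly serves elongation. Fibre cells of the lens make large amounts of crystallin protein while they differentiate and then lose their organelles, and the lens epithelium is the nucleated layer at its front.

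Of the 44 genes, 34 reached a signal of 5, the minimum the study used, in at least 1 of the 9 ICR arrays, which is 77.3% against 25.0% of all named genes. The 10 that did not were Eif1ad, Eif2a, Eif2ak3, Eif2ak4, Eif2b1, Eif2b4, Eif2d, Eif4e1b, Eif4e3 and Eif4ebp3. Eif1a, Eif2b2 and Eif5a2 passed through a single ICR array. Eif4g1 had 3 probe sets and each other gene had 1. A further 3 probe sets carry an Eif symbol together with a pseudogene or a near copy (Eif5, Eif3e and Eif2s3) and were not used. Per array, 3023 to 3934 of all named genes reached a signal of 5. The 6 measured lens fibre markers lay between 8.25 and 13.1 in all 12 arrays, and 4 of 6 lens epithelium markers reached 5 in every array, with the proliferation genes Cdk1 and Top2a below it. None of 8 ciliary body and iris, 6 retina and 3 blood markers reached 5 in any array.

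The 3 ICR arrays numbered replicate 1, one of each age, stood apart from the other 6. Their mean lay above that of the other arrays by a median of 0.46 over the 34 genes and 0.22 over all 4546 genes tested. In 14 of the 34 genes (41.2%, against 35.0% of all genes tested) each of them lay above all 6 other arrays. The shift exceeded 1 in Eif3m (1.98), Eif4ebp1 (1.51), Eif2s1 (1.23), Eif1b (1.23) and Eif5a (1.02), that is in 14.7% of the 34 genes and 14.0% of all genes tested. Eif3m, which encodes an eIF3 subunit, read 8.29, 8.98 and 8.56 in these arrays at 4, 8 and 10 weeks and 6.42 to 7.01 in the other 6. Deviations from the age means correlated at 0.55 to 0.85 across genes between arrays of the same replicate number. Each comparison of ages is therefore given without and with the replicate number as a block. Age fits without the replicate 1 arrays are given as counts of calls, with values for Eif4e, Eif2s1 and Eif2s2.

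**Figure D1:**
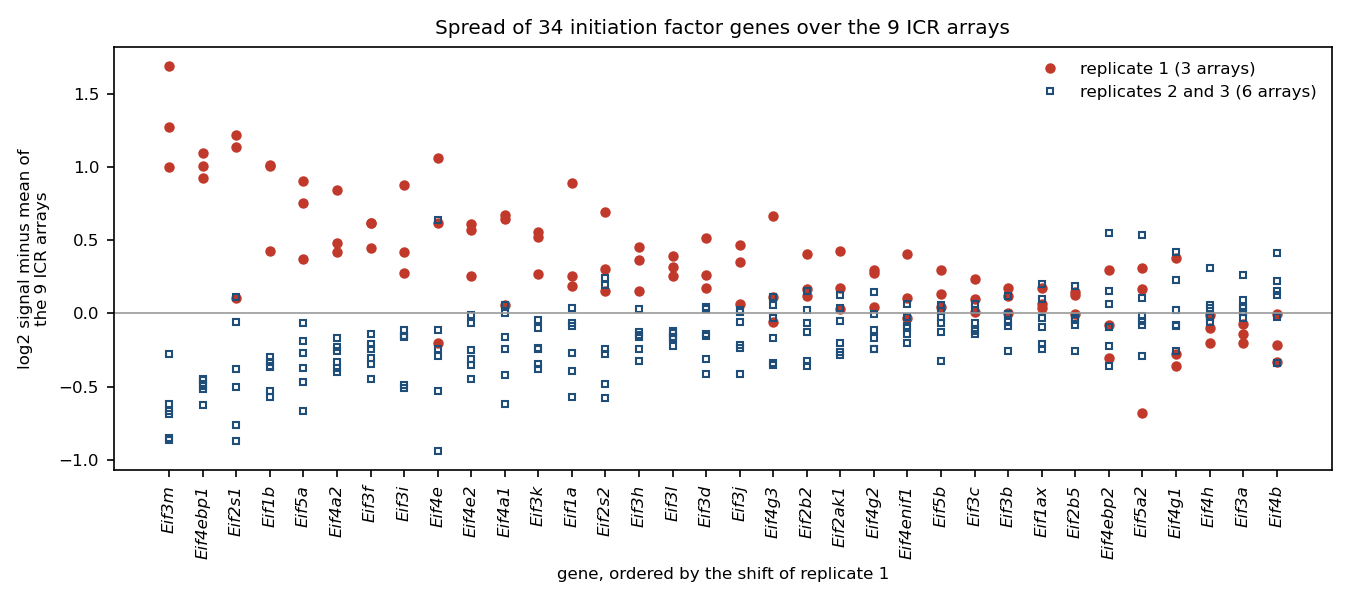
Log2 signal of each of the 34 genes in the 9 ICR arrays minus the gene's mean over them (vertical axis), genes ordered along the horizontal axis by the shift of replicate 1, with filled circles for replicate 1 and open squares for replicates 2 and 3. Eif3m, Eif4ebp1, Eif2s1, Eif1b and Eif5a are shifted by more than 1, while Eif4b lies lower in replicate 1.

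To see how the initiation factors differed between opaque and clear ICR lenses, 10-week ICR lenses were set against 4-week ICR lenses. Opacity and age cannot be told apart in ICR, since every ICR array with opacity is older than those at 4 weeks. Without the block, limma called none of the 34 genes (0.154% of all 4546 genes tested were called), and 6 of the 34 had an unadjusted p under 0.05, as had 501 of all genes. With the block it called 7 of the 34 (20.6%), against 8.91% of all genes tested. Lower at 10 weeks were Eif4e, Eif4g1, Eif4a1, Eif4ebp2, Eif2s1 and Eif2s2 (6 genes, against 7.33% of all genes), and Eif4b was higher (1 gene, against 1.58%). The 6 lower genes are parts of the cap-binding complex, one of its inhibitors, and both measured eIF2 subunits, while Eif4b is a helper of eIF4A. All 7 reached a signal of 5 in all 9 ICR arrays. Without any 1 of 4 arrays (4-week replicates 1 and 2, 10-week replicates 1 and 2) only Eif2s1, Eif2s2 and Eif4e kept the call, and without the 3 replicate 1 arrays no gene did. In each of these fits the 7 genes kept their direction. The median change was -0.12 over the 34 genes and -0.10 over all genes tested, and 24 of the 34 (70.6%) were below 0, against 65.5% of all genes. After quantile normalization the median of the 34 genes was -0.03 and that of all genes was close to 0, and 20 of the 34 were below 0. Of the lens epithelium markers, Pax6 differed by -0.41 (adjusted p = 0.0589 by limma with the block) and Gja1 by -0.58 (adjusted p = 0.124), while Cdh1 (0.15) and Foxe3 (0.16) lay above 0. The mean level of all 6 was 5.24 to 5.35 per array at 10 weeks, against 5.36 to 5.51 at 4 weeks, with Cdk1 and Top2a below 5 throughout. That of the 6 fibre markers was 11.4 to 11.5 at 10 weeks, against 11.6 to 11.7 at 4 weeks. Their part in the lower signals was not tested.

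**Figure D2:**
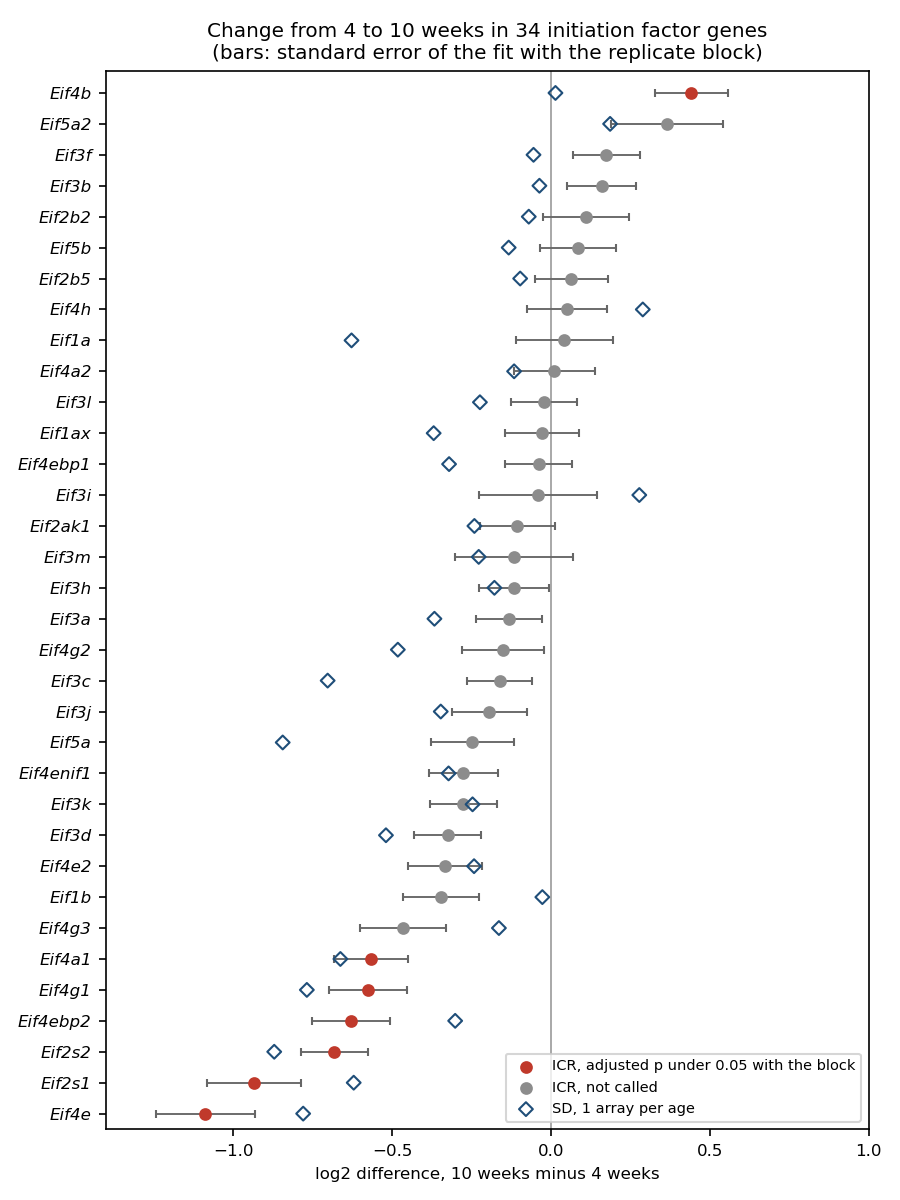
Difference in log2 signal between 10 and 4 weeks (horizontal axis) for 34 genes (vertical axis), with circles and standard error bars from the ICR fit with the replicate block (3 arrays per age) and open diamonds for the single SD arrays. Eif4e has the lowest ICR value at -1.09 and Eif4b the highest at 0.44, and the SD diamonds of the 6 lowered genes lie below 0 as well.

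Eif4e, the cap-binding subunit of eIF4F, showed the largest difference between 10 and 4 weeks among the 34 genes. It read 7.22, 6.79 and 6.04 at 4 weeks, 6.77, 5.86 and 5.91 at 8 weeks and 5.95, 5.62 and 5.21 at 10 weeks in ICR lenses, against 6.41, 6.05 and 5.63 in the SD lenses of those ages. All 10-week ICR arrays lay below all 4-week ICR arrays, and the 8-week arrays overlapped with both. The difference of 10 from 4 weeks was -1.09 ± 0.16 (SE) with the block (adjusted p = 0.00411 by limma) and had an adjusted p of 0.306 without it. Left-out arrays moved it between -1.25 and -0.96. Without the replicate 1 arrays the call was lost (adjusted p = 0.088 by limma with the block). The study's own tables from these arrays list Eif4e, so its fall on the arrays is not independent evidence. By RT-qPCR, a separate measurement, the study also lists Eif4e as significantly decreased in older ICR lenses. Its near relatives moved less or were dim. Eif4e2 (4EHP), a cap-binding protein that does not bind eIF4G, read 6.34, 5.75 and 5.70 at 4 weeks, 6.38, 5.52 and 5.42 at 8 weeks and 6.02, 5.32 and 5.45 at 10 weeks in ICR lenses, with 5.55, 5.54 and 5.31 in SD lenses. Its difference of -0.33 ± 0.12 (SE) was not called (adjusted p = 0.104 by limma with the block). Eif4e3 lay between 4.11 and 4.48 in ICR arrays and Eif4e1b, known as an oocyte form in mice, between 3.36 and 4.16, below the minimum throughout.

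Eif4g1, the scaffold that joins eIF4E to eIF4A and eIF3, was called as lower at 10 weeks with the block. It read 7.97, 8.01 and 7.82 at 4 weeks, 7.32, 7.51 and 7.62 at 8 weeks and 7.23, 7.34 and 7.51 at 10 weeks in ICR lenses, against 7.78, 7.33 and 7.02 in SD lenses. None of the 6 arrays with opacity reached the lowest 4-week ICR array. The difference at 10 weeks was -0.58 ± 0.12 (SE, adjusted p = 0.0210 by limma with the block, 0.127 without it). At 8 weeks it was -0.45 and was not called (adjusted p = 0.1499 by limma with the block, 0.762 without it). The other 2 Eif4g1 probe sets also lay below every 4-week array in all 6 arrays with opacity, the first at 7.04 to 7.20 against 7.37 to 7.65 and the second at 5.40 to 6.44 against 6.54 to 6.71.

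Of the other scaffolds, Eif4g3 read 6.43, 5.88 and 5.83 at 4 weeks, 5.88, 5.42 and 5.74 at 8 weeks and 5.71, 5.60 and 5.43 at 10 weeks in ICR lenses, with 5.81, 5.63 and 5.65 in SD lenses. Its 10-week arrays lay below the 4-week arrays, but the difference of -0.47 ± 0.13 (SE) was not called (adjusted p = 0.0615 by limma with the block). Eif4g2 (DAP5), which lacks the eIF4E-binding site, read 8.43, 8.02 and 8.28 at 4 weeks, 8.41, 7.89 and 7.89 at 8 weeks and 8.18, 8.13 and 7.97 at 10 weeks in ICR lenses, with 8.22, 8.02 and 7.74 in SD lenses. The ages overlapped, and its difference was -0.15 ± 0.13 (SE).

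Eif4a1, the main eIF4A helicase, was lower at 10 weeks within each replicate number. It read 8.12, 7.47 and 7.53 at 4 weeks, 8.14, 7.31 and 7.22 at 8 weeks and 7.53, 6.85 and 7.04 at 10 weeks in ICR lenses, with 7.41, 7.34 and 6.75 in SD lenses. Replicate 1 was the highest array of each age, so the ages overlapped over all arrays. The difference was -0.57 ± 0.12 (SE, adjusted p = 0.0188 by limma with the block, 0.591 without it). Its paralog Eif4a2 read 7.46, 6.72 and 6.58 at 4 weeks, 7.83, 6.81 and 6.61 at 8 weeks and 7.40, 6.65 and 6.75 at 10 weeks in ICR lenses, with 6.84, 6.63 and 6.73 in SD lenses. Its difference was 0.01 ± 0.13 (SE), close to 0.

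Eif4b, which stimulates eIF4A, was the only gene of the 34 called as higher. It read 8.04, 8.04 and 8.35 at 4 weeks, 8.15, 8.52 and 8.50 at 8 weeks and 8.37, 8.59 and 8.78 at 10 weeks in ICR lenses, against 8.52, 8.40 and 8.53 in SD lenses. The 10-week arrays lay above the 4-week arrays by a narrow gap, between 8.35 and 8.37. The difference was 0.44 ± 0.11 (SE, adjusted p = 0.0416 by limma with the block, 0.391 without it), and the call was lost in 10 of 17 alternatives, among them the fit without any 1 of 7 of the 9 arrays. Eif4h, a related helper of eIF4A, lay between 6.83 and 7.34 in ICR arrays and was not called.

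**Figure D3:**
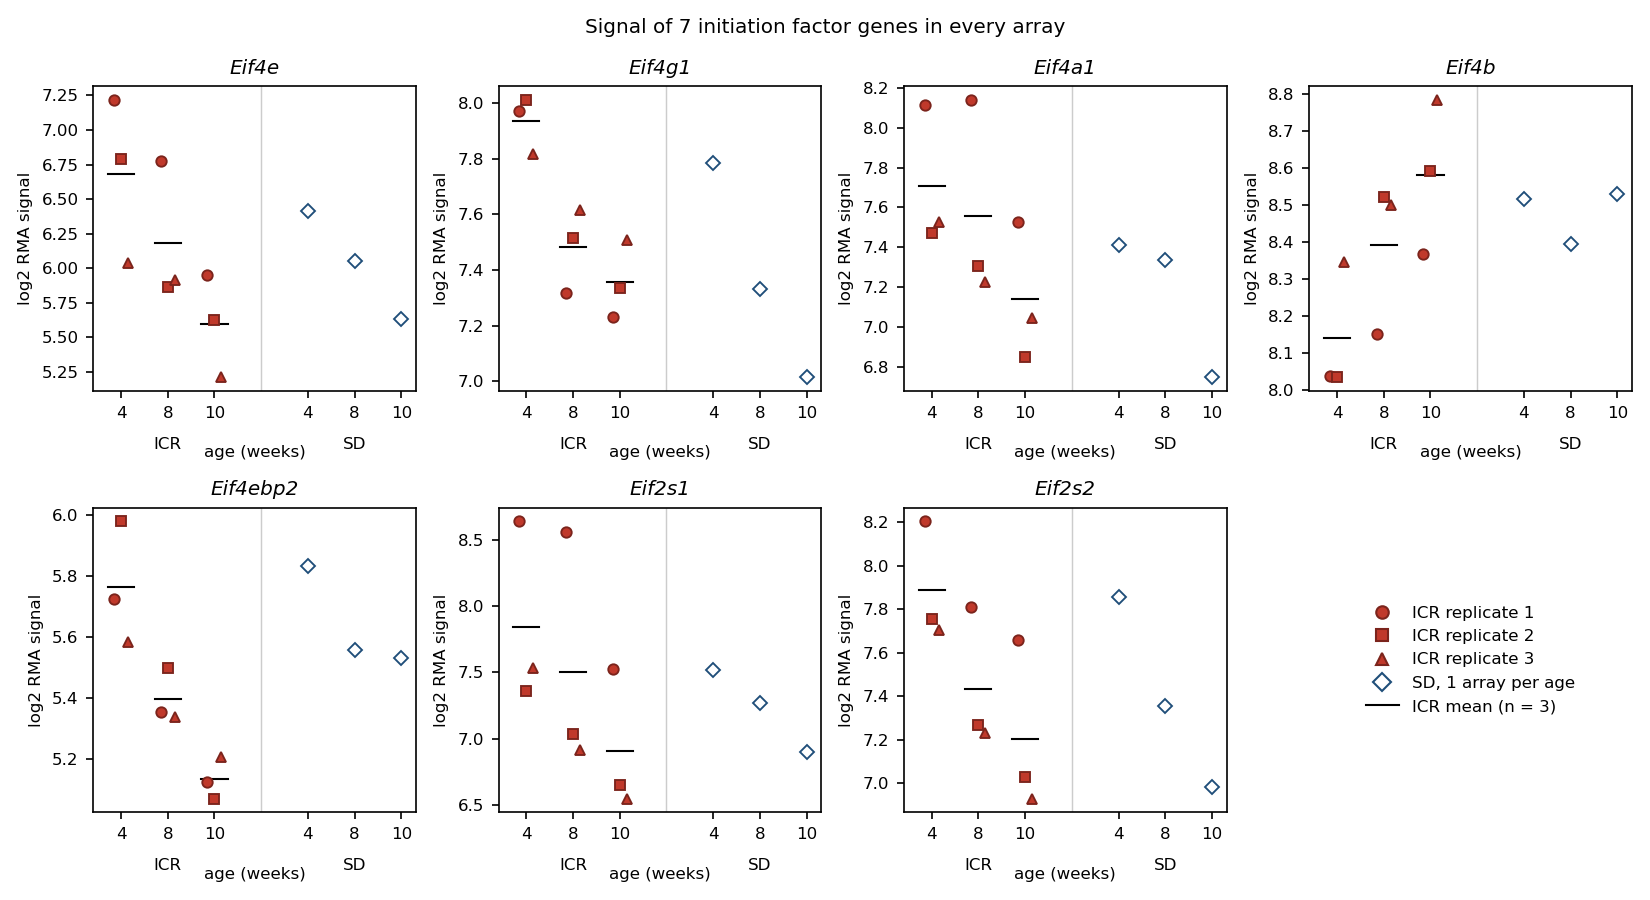
Log2 RMA signal (vertical axis) by age in weeks for the 7 genes called between 10 and 4 weeks with the block, with filled symbols for ICR replicates 1 to 3, bars for the ICR mean of 3 arrays, and open diamonds for the single SD array of each age. All but Eif4b are lowest at 10 weeks in ICR by the mean, and the replicate 1 circles lie high in Eif4e, Eif4a1, Eif2s1 and Eif2s2.

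Among the proteins that bind eIF4E, Eif4ebp2, a translational repressor, was called as lower at 10 weeks with the block. It read 5.72, 5.98 and 5.58 at 4 weeks, 5.35, 5.50 and 5.34 at 8 weeks and 5.12, 5.07 and 5.20 at 10 weeks in ICR lenses, against 5.83, 5.56 and 5.53 in SD lenses. The 3 ICR ages did not overlap. The difference at 10 weeks was -0.63 ± 0.12 (SE, adjusted p = 0.0148 by limma with the block, 0.0983 without it). At 8 weeks it was -0.37 and was not called (adjusted p = 0.208 by limma with the block, 0.828 without it). Eif4ebp1, the repressor whose phosphorylation is a common readout of mTOR, followed the replicate number instead of age. It read 6.91, 5.31 and 5.36 at 4 weeks, 6.74, 5.33 and 5.18 at 8 weeks and 6.82, 5.29 and 5.36 at 10 weeks in ICR lenses, with 5.18, 4.85 and 4.85 in SD lenses. The first value of each age is replicate 1, and the change with age was -0.04 ± 0.11 (SE). Eif4enif1 (4E-T), which carries eIF4E into the nucleus, was lower by a difference of -0.28. It was not called (adjusted p = 0.139 by limma with the block). Its 10-week arrays lay below its 4-week arrays by a narrow gap, between 5.39 and 5.40. Eif4ebp3 lay between 2.60 and 3.18 in ICR arrays.

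Both measured eIF2 subunits were called as lower with the block. Eif2s1 encodes eIF2 alpha, the subunit that stress kinases phosphorylate. It read 8.64, 7.36 and 7.53 at 4 weeks, 8.56, 7.03 and 6.91 at 8 weeks and 7.52, 6.65 and 6.55 at 10 weeks in ICR lenses, against 7.52, 7.27 and 6.90 in SD lenses. Replicate 1 was far above the others at each age, and within each replicate number the 10-week array was the lowest. The difference was -0.94 ± 0.15 (SE, adjusted p = 0.00644 by limma with the block, 0.618 without it), and without the replicate 1 arrays it was -0.85 (adjusted p = 0.0586).

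Eif2s2, the beta subunit, read 8.20, 7.75 and 7.70 at 4 weeks, 7.81, 7.27 and 7.23 at 8 weeks and 7.66, 7.03 and 6.93 at 10 weeks in ICR lenses, against 7.85, 7.35 and 6.98 in SD lenses. Its 10-week arrays lay below its 4-week arrays. The difference was -0.68 ± 0.11 (SE, adjusted p = 0.00584 by limma with the block, 0.375 without it), and without the replicate 1 arrays it was -0.75 (adjusted p = 0.0584).

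No gene of the kinases or the exchange factor that act on eIF2 was called. Eif2ak1 (HRI), the heme-regulated kinase, was the one kinase to reach a signal of 5, and it read 5.42, 4.71 and 5.12 at 4 weeks, 5.02, 4.79 and 4.94 at 8 weeks and 5.17, 4.73 and 5.03 at 10 weeks in ICR lenses, with 4.99, 4.86 and 4.74 in SD lenses. The ages overlapped. Eif2ak3 (PERK), the kinase of the endoplasmic reticulum, lay between 3.60 and 4.41 and Eif2ak4 (GCN2), the kinase of amino acid shortage, between 3.68 and 4.22 in ICR arrays. Of eIF2B, which exchanges GDP for GTP on eIF2, Eif2b2 and Eif2b5 were measured and changed by 0.11 and 0.06, without a call.

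None of the 11 eIF3 subunits was called in either direction, with differences between -0.33 and 0.17. The lowest was Eif3d, a subunit that can itself bind the cap of some mRNAs. It read 7.05, 6.56 and 6.58 at 4 weeks, 6.79, 6.22 and 6.38 at 8 weeks and 6.71, 6.12 and 6.39 at 10 weeks in ICR lenses, with 6.48, 6.32 and 5.96 in SD lenses (adjusted p = 0.0858 by limma with the block). The ages overlapped. Of eIF1 and eIF1A, 3 genes were measured and none was called. The largest change among them was that of Eif1b, which read 6.95, 5.64 and 5.58 at 4 weeks, 6.94, 5.60 and 5.57 at 8 weeks and 6.36, 5.40 and 5.36 at 10 weeks in ICR lenses, with 5.43, 5.51 and 5.40 in SD lenses. Its difference of -0.35 ± 0.12 (SE) was not called (adjusted p = 0.1005 by limma with the block), and the replicate 1 arrays lay far above the rest. Eif5b, the GTPase of subunit joining, read 8.55, 8.43 and 8.56 at 4 weeks, 8.64, 8.37 and 8.18 at 8 weeks and 8.80, 8.52 and 8.48 at 10 weeks in ICR lenses, with 8.60, 8.46 and 8.46 in SD lenses. The ages overlapped, and it changed by 0.08.

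The eIF5A genes encode the only proteins known to carry hypusine, a modified lysine made from spermidine. Eif5a, the ubiquitous form, read 8.77, 7.80 and 7.67 at 4 weeks, 8.23, 7.19 and 7.59 at 8 weeks and 8.61, 7.39 and 7.49 at 10 weeks in ICR lenses, against 7.99, 7.71 and 7.15 in SD lenses. The ages overlapped, and the difference of -0.25 ± 0.13 (SE) was not called. Eif5a2, the form with restricted expression, read 3.83, 4.22 and 4.46 at 4 weeks, 4.83, 5.05 and 4.62 at 8 weeks and 4.68, 4.43 and 4.50 at 10 weeks in ICR lenses, with 4.44, 4.39 and 4.63 in SD lenses. The 8-week arrays lay above the 4-week arrays, and a single array reached 5. The difference from 4 weeks was 0.66 at 8 weeks and 0.37 at 10 weeks, and neither was called with or without the block. The study's own tables from these arrays list Eif5a2, and by RT-qPCR the study also lists it as significantly increased in older ICR lenses. Since Eif5a2 is in those array tables and entered the test only through an 8-week array, its array values are a description.

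The 6 arrays with opacity were also set against the 3 at 4 weeks. Without the block limma called none of the 34 genes, against 0.0660% of all genes tested. An unadjusted p under 0.05 was found for 7 of the 34 and 464 of all genes. Eif5a2 is among the 7 and entered the test only through an 8-week array with opacity, so its place is no evidence of a rise. With the block limma called 5 as lower (14.7%), against 6.89% of all genes tested in either direction. These were Eif2s2 (-0.57), Eif4e (-0.79), Eif2s1 (-0.64), Eif4g1 (-0.51) and Eif4ebp2 (-0.50). None was left without 4-week replicate 1 or 4-week replicate 2, 2 were left without 8-week replicate 2, and 3 without 8-week replicate 3, 10-week replicate 1 or 10-week replicate 2. Eif4g1 and Eif4ebp2 were the 2 genes of the 34 with all 6 arrays below the 4-week arrays, as were 5.46% of all genes tested, and 0 of the 34 lay above them, against 1.06%. At 10 weeks alone, 7 of the 34 (20.6%) lay wholly below the 4-week arrays, against 13.0% of all genes, and 1 above (2.94%), against 4.20%. The 7 were Eif4e, Eif4g1, Eif4g3, Eif4ebp2, Eif4enif1, Eif2s2 and Eif3c, and the 1 was Eif4b. The gap was narrow in Eif4enif1 (5.389 to 5.399), Eif3c (7.878 to 7.893) and Eif4b (8.346 to 8.368).

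Between 8 and 4 weeks, limma called none of the 34 genes without the block (0 of all genes tested, 3 of the 34 and 246 of all at an unadjusted p under 0.05) and none with it (0.176% of all genes, 9 of the 34 and 649 of all at an unadjusted p under 0.05). Between 10 and 8 weeks it called none without the block (0 of all genes, 0 of the 34 and 87 of all at an unadjusted p under 0.05) and none with it (0.220% of all genes, 4 of the 34 and 421 of all at an unadjusted p under 0.05). The counts of 3 and 9 for 8 against 4 weeks include Eif5a2, which entered the test only through an 8-week array. Its place in them is no evidence of a rise. The means of Eif4e, Eif2s1, Eif2s2, Eif4a1 and Eif4ebp2 at 8 weeks lay between those at 4 and 10 weeks. The difference from 4 weeks was -0.45 at 8 and -0.58 at 10 weeks in Eif4g1, and -0.15 at 8 and -0.57 at 10 weeks in Eif4a1.

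SD lenses, which stay clear, give the same ages as single arrays, so their changes have no replicate check. From 4 to 10 weeks 30 of the 34 genes were lower in the SD array (88.2%, against 73.8% of all genes tested), with a median of -0.24, against -0.18 over all genes. A fall of more than 0.5 was seen in 9 of the 34 (26.5%, against 13.7% of all genes tested). The SD changes were -0.78 for Eif4e, -0.77 for Eif4g1, -0.66 for Eif4a1, -0.30 for Eif4ebp2, -0.62 for Eif2s1 and -0.87 for Eif2s2, so each of the 6 genes called as lower in ICR was lower in SD too. Eif4b differed by 0.01 in SD. Of the 6, Eif4g1, Eif4a1 and Eif2s2 fell by more in SD than in ICR lenses, where they changed by -0.58, -0.57 and -0.68. Eif4e, Eif4ebp2 and Eif2s1 fell by more in ICR lenses. Genes not called that were lower in SD by more than in ICR include Eif5a (-0.84), Eif3c (-0.70) and Eif1a (-0.63). In ICR lenses these changed by -0.25, -0.16 and 0.04. The difference between strains in the change from 4 to 10 weeks, tested as an interaction, was called by limma for none of the 34 genes and for none of the 4627 genes tested (0), with 0 of the 34 and 70 of all at an unadjusted p under 0.05. Since SD has 1 array per age, this test has the spread of the ICR arrays only.

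At matched ages, ICR against SD lenses gave no call among the 34 genes by limma (0.670% of all genes were called, and 2 of the 34 and 446 of all had an unadjusted p under 0.05), and none with the replicate number as a random block. The 2 include Eif2b2, which entered the test only through a single ICR array, so its place there is no evidence of a strain difference. The median difference was 0.19 over the 34 genes and 0.10 over all genes tested, and without the replicate 1 arrays these medians were 0.03 and 0.01. Eif3c, a core subunit of eIF3, came nearest. It read 8.10, 7.89 and 7.93 in ICR against 7.69 in SD at 4 weeks, 7.96, 7.74 and 7.73 against 7.40 at 8 weeks, and 7.88, 7.80 and 7.76 against 6.99 at 10 weeks. Every ICR array lay above the SD array of its age, and the difference was 0.51 ± 0.11 (SE, adjusted p = 0.0958 by limma, and 0.287 with the random block). Without the replicate 1 arrays it was 0.45.

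Eif2b2, the beta subunit of eIF2B, read 4.98, 4.45 and 4.68 in ICR against 4.38 in SD at 4 weeks, 4.93, 4.84 and 4.96 against 4.54 at 8 weeks, and 5.22, 4.49 and 4.75 against 4.31 at 10 weeks. Its difference was 0.40 ± 0.15 (SE, adjusted p = 0.414 by limma), and 0.29 without the replicate 1 arrays, at signals close to the minimum. It entered the test only through 10-week ICR replicate 1, in the strain where it was high, so its values are a description. The difference of Eif4ebp1 was 0.85 ± 0.45 (SE), and 0.35 without the replicate 1 arrays. Eif3c, Eif2b2 and Eif4ebp1 were the 3 genes of the 34 with every ICR array above its SD array, against 6.09% of all genes tested. Eif2b2 is in this count only through that 1 array. In 0 of the 34 genes did every ICR array lie below its SD array, against 3.20%.

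Paralogs were compared through the difference of their log2 signals within each array, since levels of different probe sets cannot be set against each other. There were 8 pairs of measured paralogs, of which 6 were tested and the 2 with Eif4e or Eif5a2 were only described. The Eif4a1 minus Eif4a2 difference was 0.13 to 0.62 in the 6 arrays with opacity, against 0.65 to 0.95 in the 3 arrays at 4 weeks, and the groups did not overlap. Its mean changed by -0.44, with p = 0.0119 in an exact 2-sided permutation test, the smallest p that 84 arrangements allow, and an adjusted p of 0.0714 over the 6 pairs. Between 10 and 4 weeks it changed by -0.53, -0.55 and -0.66 within replicate numbers 1 to 3, and without replicate 1 its mean change was -0.45. In the single SD arrays it changed by -0.55 at 10 weeks and by 0.14 at 8 weeks, both against 4 weeks.

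The Eif4g2 minus Eif4g3 difference was 2.45 ± 0.15 with opacity, against 2.20 ± 0.23 at 4 weeks (SD, n = 6 and 3 arrays), and the groups overlapped. It changed by 0.25 (exact permutation p = 0.0238, adjusted p = 0.0714), and without replicate 1 by 0.13. Between 10 and 4 weeks it changed by 0.47, 0.39 and 0.08 within replicate numbers 1 to 3. In the single SD arrays it went the other way, by -0.32. After quantile normalization its exact permutation p was 0.167. With ages exchanged only within a replicate number, the exact permutation p was 0.0741 for this pair (adjusted p = 0.148) and 0.0370 for Eif4a1 and Eif4a2 (adjusted p = 0.148), the smallest that 27 arrangements allow. Eif4g1 minus Eif4g2 changed by -0.35, Eif4g1 minus Eif4g3 by -0.10, Eif4ebp1 minus Eif4ebp2 by 0.42 and Eif1a minus Eif1ax by 0.19, with exact permutation p-values between 0.214 and 0.643. No pair passed the threshold after adjustment, and a single pair could not, since the smallest p of 0.0119 gives 0.0714. Eif4e minus Eif4e2 changed by -0.55 and Eif5a minus Eif5a2 by -0.84, and in both the groups overlapped.

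**Figure D4:**
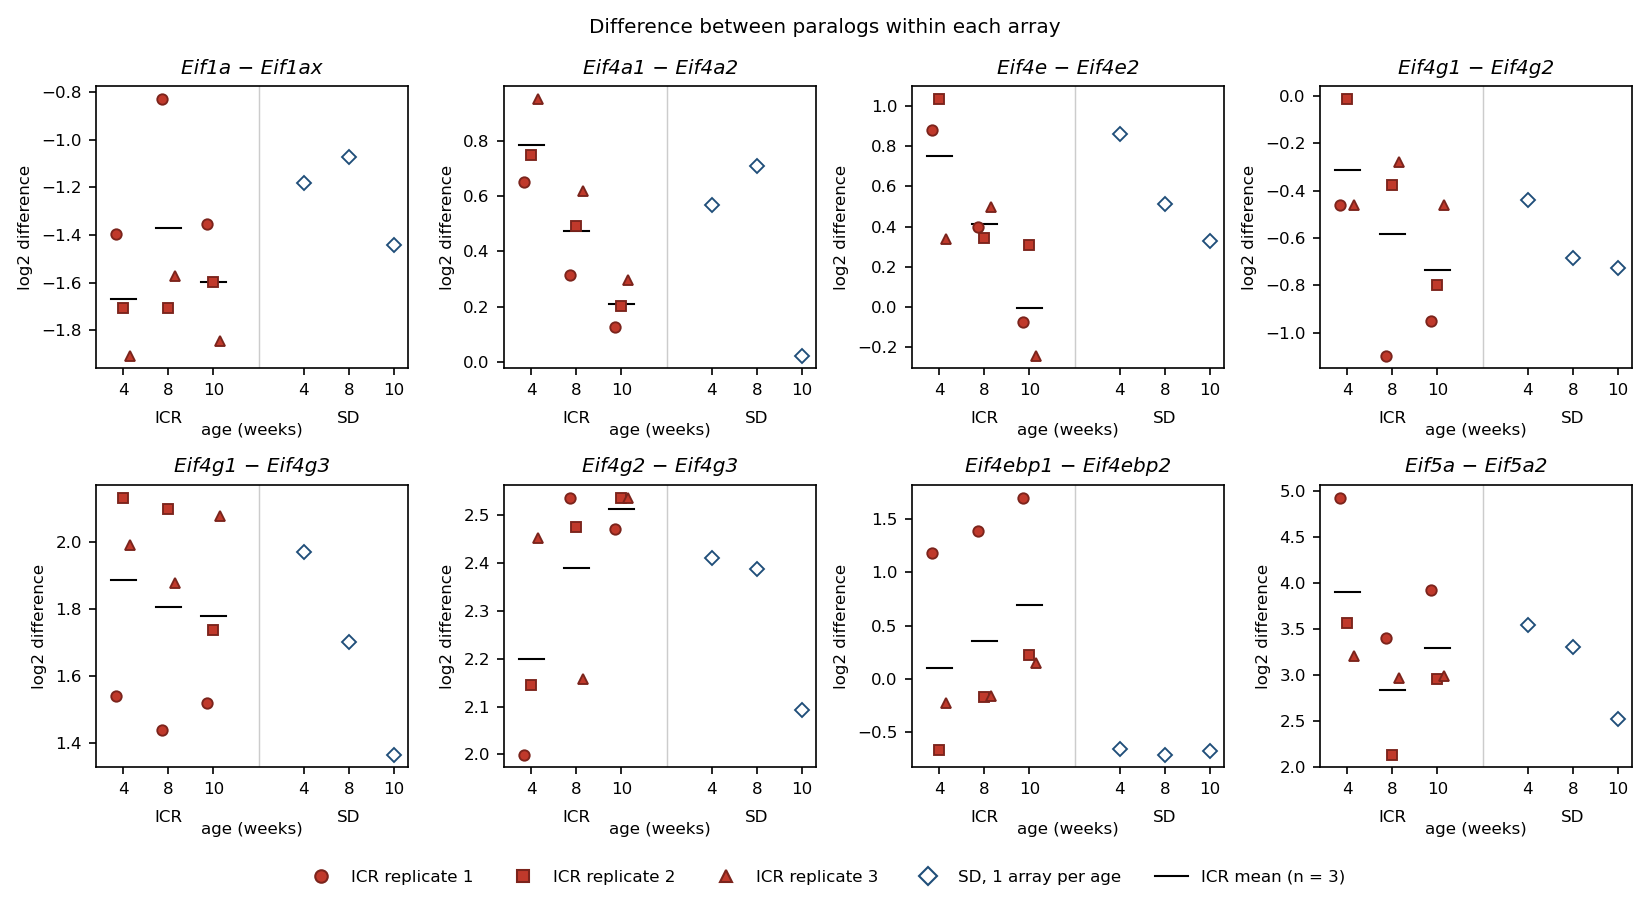
Difference in log2 signal between 2 paralogs within each array (vertical axis) by age in weeks, 1 panel per pair, with filled symbols for ICR replicates 1 to 3, bars for the ICR mean of 3 arrays and open diamonds for the single SD arrays. Only for Eif4a1 and Eif4a2 do the 4-week ICR values (0.65 to 0.95) lie apart from all values with opacity (0.13 to 0.62).

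The promoters of the genes that were lower together were read from RefSeq for rat build GRCr8, in windows of 250 bases before to 50 after the gene start. A window was found for 40 of the 44 genes, all but Eif3h, Eif4b, Eif4e3 and Eif4ebp1. The E-box CACGTG, the palindromic site bound by MYC with MAX and by related factors, was searched on both strands. At least 1 copy stood in 9 of the 40 genes (22.5%), counting a gene once over its windows, against 7.08% of all 27457 genes with a window and 7.69% of the protein-coding ones. By window, the share was 6.42% of all 33469. Of the 6 genes called as lower with the block, Eif4e and Eif4g1 held it. The 150 bases around the start of both are shown with the E-box in capitals, and those of Eif2s1, which held none in its window, stand beside them for contrast. A match is a run of letters and says nothing on binding in the lens.
Eif4e (chr2:229740633-229740782, plus strand): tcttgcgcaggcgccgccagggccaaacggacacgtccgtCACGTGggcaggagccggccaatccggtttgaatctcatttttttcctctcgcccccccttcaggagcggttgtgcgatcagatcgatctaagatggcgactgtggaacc
Eif4g1 (chr11:93746338-93746487, minus strand): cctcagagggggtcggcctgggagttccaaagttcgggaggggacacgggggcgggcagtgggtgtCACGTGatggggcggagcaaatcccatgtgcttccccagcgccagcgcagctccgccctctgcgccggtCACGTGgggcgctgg
Eif2s1 (chr6:103405760-103405909, plus strand): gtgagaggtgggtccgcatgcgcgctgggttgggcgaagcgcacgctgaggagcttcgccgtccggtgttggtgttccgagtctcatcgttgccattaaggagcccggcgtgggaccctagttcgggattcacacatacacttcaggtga
The Eif4e window held a further copy upstream of the stretch shown. The other genes with a copy were Eif1b, Eif3a, Eif3b, Eif3f, Eif4h, Eif5a and Eif5a2, none of which was called.

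Other genes of the pathway were taken from 4 lists and compared between 10 and 4 weeks in ICR. Without the block limma called none of them. With the block, none of 10 elongation and release factors and none of 7 genes of hypusine and polyamine synthesis was called. Of 19 cap complex partners and mTOR genes, 2 were called as lower, against 7.33% of all genes tested. These were Paip2b, an inhibitor of poly(A)-binding protein, and Rps6kb2, an S6 kinase, and each reached a signal of 5 in a single 4-week array. Both entered the test only through the age at which they were high, so their calls are not evidence of a fall. Of 12 genes of eIF2 control, 4 were called as lower, against 7.33% of all genes, and 1 as higher, against 1.58%, with a list median of -0.24 and a median of -0.10 over all genes. Of these, Asns, asparagine synthetase, entered through a single 4-week array and Ddit3 through an 8-week and a 10-week array only, so only Ppp1r15a, Ppp1r15b and Metap1 were measured in all 9 ICR arrays. Their known roles differ.

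Ppp1r15a (GADD34), which directs phosphatase to eIF2 alpha, read 6.16, 6.88 and 5.62 at 4 weeks, 5.59, 5.62 and 5.21 at 8 weeks and 5.05, 5.06 and 5.03 at 10 weeks in ICR lenses, against 6.59, 5.45 and 5.37 in SD lenses. It changed by -1.17 ± 0.20 (SE, adjusted p = 0.00849 by limma with the block), and its 10-week arrays lay below all its 4-week arrays. Its constitutive relative Ppp1r15b was lower by a difference of -0.49. Metap1, which removes the initiator methionine, changed by -1.19 in ICR lenses. In the single SD arrays Metap1 read 7.54, 6.97 and 6.51 at 4, 8 and 10 weeks. The 10-week SD array thus lay below the 4-week SD array for Metap1, as for Ppp1r15a and Ppp1r15b. Metap1 is in the study's own tables from these arrays, and the study also lists it as significantly decreased by RT-qPCR in older ICR lenses. In SD lenses the study ran RT-qPCR only for genes increased in ICR. Ddit3 (CHOP), a stress transcription factor, read 4.97, 3.41 and 4.09 at 4 weeks, 5.04, 3.80 and 4.31 at 8 weeks and 5.57, 4.19 and 4.55 at 10 weeks in ICR lenses, with 3.86, 3.52 and 3.33 in SD lenses. Its 10-week array was above its 4-week array within each number, but it reached 5 only in replicate 1 at 8 and 10 weeks, and the replicate 1 arrays exceeded the others by 1.14, so these values are a description.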

How the data were processed

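The authors deposited log2 signals of 36685 probe sets on 12 GeneChip Rat Gene 2.0 ST arrays, which they had normalized with RMA in R; the package version is not given in the sources used here. The signals have no background value beside them, and the study's minimum of 5 served as the detection limit. The number of arrays limits the precision. Platform annotation gave 18511 probe sets 1 symbol, 575 several, and 17599 were not listed. Of 291 genes with several probe sets, the one with the highest ICR mean was used. Genes with a signal of 5 in at least 1 ICR array (at least 1 of 12 for strains) were tested with limma 3.58.1 (lmFit and eBayes, R 4.3.3), 2-sided, with Benjamini-Hochberg adjustment over all genes tested to 0.05. The 3 ages shared one fit, and strains were compared with age as a factor. The procedure was tested on simulated data.

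Titles number the ICR samples 1 to 3 at each age. Deviations from the age means correlated at 0.55 to 0.85 for all 9 pairs of equal number and at -0.75 to 0.51 for 18 pairs of different number, so the numbers were taken to pair the samples. The negative values all involved replicate 1. Between numbers 2 and 3 the values were 0.34 to 0.51, against 0.55 to 0.69 within number 2 or within number 3. The pairing of numbers 2 and 3 is thus less clear than the separation of replicate 1. The labels do not say what a number shares.

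Members and gene lists were chosen with earlier results of these data known. Values of every array are given for members called in any comparison, members with an unadjusted p under 0.05 from 4 to 10 weeks or between strains without the block, the families eIF4A, eIF4E, eIF4G, eIF5A, 4E-binding proteins and eIF2 kinases, and the largest change in each role; members that never reached 5 are given as ranges. The alternatives were leaving out arrays, quantile normalization, cyclic loess, other filters, other probe set rules and a variance trend.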

Additional observations from a re-analysis of the deposited data

How the results depend on the processing

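With the replicate number as a block, calls among the 34 genes went to 7 for 10 against 4 weeks and to 5 for opacity against 4 weeks, against 0 and 0 without it, and changed in no other comparison of ICR ages. The 7 calls with the block became 3 to 7 without 1 array, 0 without the replicate 1 arrays, 2 with no filter on signal and 3 with all probe sets tested. The 5 calls for opacity became 0 to 5 without 1 array, 0 without the replicate 1 arrays, 0 with no filter, 8 with a signal of 5 asked in at least 3 arrays, 10 with variance trend and robust estimation and 1 with all probe sets tested. Paralog pairs with an unadjusted p under 0.05 numbered 2, and 1 each with ages exchanged within the replicate block and after quantile normalization. Over all alternatives, 126 kept a count within 1.5 times and 22 did not. Most of the 126 were comparisons with 0 calls that stayed at 0. With the block, the count of 7 stayed within 1.5 times in 10 of 17 alternatives and the count of 5 in 6 of 17. For the 7 genes called with the block, 82 values kept the call and 37 lost it, and of values not called, 171 stayed so and 7 were called (the same 7 genes, with the block). None changed direction. A fixed block with strain could not be fitted, as the SD arrays carry no number of their own, nor could the interaction without the SD array of 4 or 10 weeks. The causes were not tested. Signals near 5 limit Eif1a, Eif2ak1, Eif2b2 and Eif5a2. The random block, the ICR age fits without all replicate 1 arrays, and every alternative combined with the block were chosen after seeing the data.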
